A study of Sus scrofa with 8 samples.

Results

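AQP3, AQP5 and AQP8 are 3 of the 30282 genes in the bulk RNA-seq table of porcine pancreatic ductal organoids (PPDO), which grow from ducts picked by hand out of the pig pancreas. The 3 genes were chosen by their measured difference between culture media, so the differences below describe them and carry no test. Every row of the table with one of these names was summed per gene, 6 rows in all, under the identifiers ENSSSCG00000040513 (AQP3), ENSSSCG00000000211 (AQP5) and ENSSSCG00000031865 (AQP8).

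Aquaporins are membrane channels that let water cross the cell, and the pancreatic duct uses such water flow to make a bicarbonate-rich juice. AQP3 belongs to the aquaglyceroporins, which also pass glycerol and hydrogen peroxide, and sits mostly in basolateral membranes of epithelia. AQP5 is a water channel of the apical membrane in secretory glands such as salivary and lacrimal glands. AQP8 passes water, ammonia and hydrogen peroxide, and is known from pancreatic acinar cells and surface cells of the colon.

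The study cultured 4 PPDO lines, each from 1 pig, in complete medium (control) and in differentiation medium (treated), with 1 library per line and medium. Em derives from a pancreas before birth, EPN1 and EPN2 from pigs between birth and shortly after weaning, and LPN from an adolescent pig. Em and LPN thus each stand for a stage with 1 animal. Complete medium held WNT3a, R-spondin1, noggin, FGF10, EGF, gastrin and prostaglandin E2, and differentiation medium left these out for a week. To maintain PPDO, the paper gave an L-WRN conditioned medium supplement in place of recombinant WNT3a, R-spondin1 and noggin. Which form the complete medium of these libraries held is not stated. Both media shared N2, B27 without vitamin A, the TGF-beta receptor inhibitor A83-01, the ROCK inhibitor Y-27632, nicotinamide and N-acetylcysteine. The pigs were of German landrace background, wild type or carrying an INS-eGFP reporter. The sample titles separate control from treated, whereas another label names an endocrine induction medium for all 8 samples, and the titles were followed here.

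Library totals lay between 40553593 and 47910657 counts. Levels are given as CPM, counts scaled to a common library size, with TMM factors that ranged from 0.935 to 1.06. A count of 0 allows up to 3 counts, or 0.0619 to 0.0731 CPM on the TMM scale, and this limit covers counting error only. Of 14 duct markers looked for, 13 were in the table and all 13 passed the expression filter. The duct keratin KRT7 averaged 1988 ± 140 CPM with complete and 1657 ± 1004 CPM with differentiation medium (SD, n = 4), lowest in the EPN2 library in differentiation medium at 522 CPM. In bulk RNA, fewer cells of a type and less RNA per cell cannot be told apart.

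On Sscrofa11.1, the pig assembly of the RefSeq gene table, AQP3 lies on chr10:33045374-33050285, AQP5 on chr5:15876527-15879608 and AQP8 on chr3:21493564-21503778. AQP5 sits between AQP2, 7961 bases away, and AQP6, 8471 bases away. The nearest aquaporin to AQP3 is AQP7, at 48460 bases. Neither neighbour of AQP5 shared its level, since AQP2 reached at most 6 counts and AQP6 at most 3 in any library.

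AQP3, the water and glycerol channel, was far higher in differentiation medium in every line. In complete medium it had 49.6 CPM in Em, 55.5 in LPN, 27.7 in EPN1 and 9.45 in EPN2. In differentiation medium it had 596 CPM in Em, 1817 in LPN, 1286 in EPN1 and 408 in EPN2. The lowest library in differentiation medium lay well above the highest in complete medium, and EPN2 was the lowest line in both media. Over lines AQP3 averaged 35.6 ± 21.1 CPM under complete and 1027 ± 648 CPM under differentiation medium (SD, n = 4), and the fitted log2 fold change was 4.85 (SE 0.73).

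Within lines, the AQP3 fold was 12.0 in Em (95% counting interval 11.5 to 12.5), 32.7 in LPN (31.4 to 34.2), 46.4 in EPN1 (43.8 to 49.2) and 43.2 in EPN2 (39.2 to 47.7). The embryonic line had the smallest fold, and the 3 postnatal lines lay closer to each other than to it. These intervals cover counting error only, and with 1 library per line and medium the spread of a fold within a line is not known. In LPN in differentiation medium AQP3 took 0.189% of all counts. Its log2 fold change was the 46th highest among the 14475 genes tested.

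AQP5, the apical channel of secretory glands, went the other way and was a low transcript throughout. In complete medium it had 16.3 CPM in Em, 1.34 in LPN, 0.842 in EPN1 and 2.22 in EPN2. In differentiation medium it had 0.598 CPM in Em, 0.271 in LPN, 0.181 in EPN1 and 0.0467 in EPN2, the last from 2 counts. The media did not overlap, and Em was the highest line in both.

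AQP5 averaged 5.18 ± 7.45 CPM under complete and 0.274 ± 0.235 CPM under differentiation medium (SD, n = 4), with a fitted log2 fold change of -4.22 (SE 1.19). Expressed as complete over differentiation medium, the fold was 27.3 in Em (counting interval 18.8 to 41.0), 4.94 in LPN (2.66 to 9.86) and 4.65 in EPN1 (2.12 to 11.6). The ratio in EPN2 was 47.4 with an interval of 12.8 to 397. Most of the AQP5 counts in complete medium belonged to Em, with 753 against 55, 35 and 98 in LPN, EPN1 and EPN2. Without the Em library in complete medium the log2 fold change was -2.38, and without both Em libraries it was -3.08.

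AQP8, the channel of acinar and surface colon cells, spanned the widest range of the 3 as a ratio between libraries. In complete medium it had 0 counts in Em and in EPN1, 9 counts or 0.219 CPM in LPN, and 225 counts or 5.09 CPM in EPN2. In differentiation medium it had 33 counts or 0.681 CPM in Em, 7730 counts or 161 CPM in LPN, 891 counts or 20.2 CPM in EPN1, and 15075 counts or 352 CPM in EPN2. Every line was higher in differentiation medium, but the groups overlapped, because Em in differentiation medium lay below EPN2 in complete medium.

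AQP8 averaged 1.33 ± 2.51 CPM under complete and 134 ± 162 CPM under differentiation medium (SD, n = 4), so that the SD exceeded the mean in both media. The fold within a line was 736 in LPN (counting interval 387 to 1609) and 69.2 in EPN2 (60.7 to 79.3). Against a floor of 3 counts in complete medium, AQP8 was 10.5-fold higher in Em and 280-fold higher in EPN1. The lower ends of their counting intervals were 8.05 in Em and 227 in EPN1. The fitted log2 fold change was 6.65 (SE 2.30), the 8th highest of the genes tested, and it depends on 1 library: without EPN2 in complete medium it was 10.83. A fitted value with libraries at 0 is no bound.

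**Figure D1:**
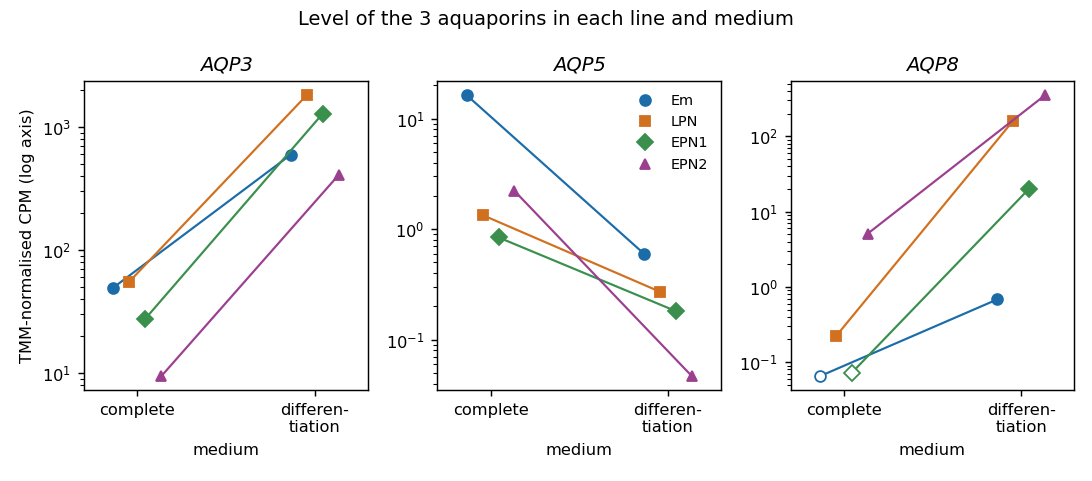
TMM-normalised CPM on a log axis for AQP3, AQP5 and AQP8 in complete and differentiation medium, 1 point per library and 1 line segment per PPDO line. Points are shifted sideways for legibility, and open symbols are libraries with 0 counts, drawn at the level of 3 counts. AQP3 rises from between 9.45 and 55.5 CPM to between 408 and 1817, AQP5 falls in all 4 lines, and AQP8 keeps EPN2 highest and Em at or near the bottom.

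In the comparison of the media over all genes (edgeR quasi-likelihood test with the medium as its single term), 6.97% of the 14475 genes tested passed an adjusted p of 0.05, 2.87% being higher and 4.1% lower in differentiation medium. Of the 3 aquaporins, 1 was past that threshold, AQP3. With the line as a replicate block, 3 of 3 were past it, while the count over all genes rose from 1009 to 2884. Because these genes were chosen from the same contrast, nothing is read from either count. All 3 passed the expression filter, which asks for 0.218 CPM in at least 4 libraries. AQP3 met that level in 8 libraries, AQP5 in 4 in complete and 2 in differentiation medium, and AQP8 in 2 in complete and 4 in differentiation medium.

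Differences between the lines, averaged over both media, were not the contrast used to choose the genes and were tested. The question was whether the lines differed in that average level of a channel. The edgeR quasi-likelihood F test of the line terms, with the medium in the model, called 5.14% of all genes. It called AQP8 (adjusted p = 0.0365; 0.0110 without the expression filter, which AQP8 had passed through differentiation medium) and called neither AQP3 (adjusted p = 0.130) nor AQP5 (adjusted p = 0.131). Each line is 1 animal with 1 library per medium, so these p-values rest on the spread that medium and line leave over. That spread mixes unlike responses of the lines to the medium with technical error, and these cannot be told apart. For AQP8 the log2 difference between media within a line had an SD of 2.46 (n = 4). The test therefore does not show that a line keeps its level whatever the medium. AQP8 had 0, 9, 0 and 225 counts in Em, LPN, EPN1 and EPN2 in complete medium, against 33, 7730, 891 and 15075 in differentiation medium. Its line level thus rests mostly on differentiation medium, whose values entered the choice of the gene. The AQP8 line p-values, also those between pairs of lines, are not independent of that choice.

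AQP8 ran in the order EPN2, LPN, EPN1, Em in differentiation medium, and in complete medium EPN2 and LPN came first with EPN1 and Em both at 0 counts. In edgeR contrasts between pairs of lines, Em was below LPN (adjusted p = 0.0467) and below EPN2 (adjusted p = 0.0151). The neighbours in the order did not differ past the threshold, with adjusted p-values of 0.199 for EPN2 and LPN, 0.415 for LPN and EPN1, and 0.258 for EPN1 and Em in the same edgeR fit. The lines from the same stage, EPN1 and EPN2, gave an adjusted p of 0.0516. The share of all genes past the threshold was 3.81% for Em and LPN, 0.124% for Em and EPN1, 9.51% for Em and EPN2, 0.0276% for LPN and EPN1, 0.484% for LPN and EPN2, and 4.15% for EPN1 and EPN2. With 1 library left out, the AQP8 line call was lost without either library of Em, LPN or EPN1. Each of those fits leaves a line with 1 library and called far fewer of all genes, so the loss is not particular to AQP8.

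For AQP3, the mean log2 CPM over both media was 8.31 in LPN, 7.56 in EPN1, 7.43 in Em and 5.96 in EPN2. The largest edgeR contrast, LPN over EPN2, was 2.33 on the log2 scale with a 95% interval from 1.06 to 3.60 and an adjusted p of 0.110. Em and EPN1 differed by -0.02 on that scale (interval -1.27 to 1.22). For AQP5, Em stood above the other lines by 2.50 to 3.19 on the log2 scale, with adjusted p-values of 0.163 against LPN, 0.306 against EPN1 and 0.0952 against EPN2. The 3 postnatal lines differed from each other by at most 0.69 in AQP5, with intervals as wide as -2.69 to 2.05 (EPN1 and EPN2). Differences between postnatal lines that lie inside such intervals are not excluded by these 8 libraries.

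With medium means subtracted, the 3 genes did not share 1 line profile. Over the 8 libraries, which come in 4 pairs from the same line, Pearson's r was 0.27 for AQP3 and AQP5, -0.31 for AQP3 and AQP8, and -0.45 for AQP5 and AQP8 (Spearman's rho 0.31, -0.19 and -0.29). AQP5 was highest in Em, where AQP8 was lowest. EPN2 held the most AQP8 and the least AQP3.

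Some markers of basal and keratinised stratified epithelium held the line order of AQP8, and 3 of them, chosen after their values were seen, are given first. KRT1, a keratin of upper epidermal layers, had 0 counts in Em and EPN1, 10 in LPN and 674 in EPN2 in complete medium, and 9, 26, 107 and 2409 counts in Em, EPN1, LPN and EPN2 in differentiation medium. KRTDAP, a keratinocyte differentiation protein, rose along the lines from 2.35 CPM in Em through 22.7 in EPN1 and 103 in LPN to 466 in EPN2 in differentiation medium. KRT5, the keratin of basal layers, ran from 4.51 CPM in Em to 7653 in EPN2 in complete medium and from 79.4 to 11106 in differentiation medium. All 3 had EPN2 highest and Em lowest or tied for lowest in both media, as AQP8 did. Other markers of the same lists did not: KRT15, ITGA6 and ITGB4 were highest in LPN in both media. COL17A1 was highest in LPN in complete medium and in EPN1 in differentiation medium. TP63 was highest in LPN in complete medium, and KRT4 in EPN1 in differentiation medium.

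Of the 6 keratinised markers tested, KRT1, KRTDAP and SBSN held the AQP8 order in both media, and of the 7 basal markers KRT5 and DSG3, a desmoglein of the desmosomes, did. Over all genes tested, 760 or 5.25% held it. The line test of edgeR called 4 of the 6 keratinised markers (KRT1, KRT10, IVL and KRTDAP), 1 of the 7 basal markers (DSG3) and 2 of the 13 duct markers (PDX1 and ONECUT1). Its share over all genes tested was 5.14%. In the media comparison the 6 keratinised markers had a median log2 fold change of 1.16 with 0 past the threshold in edgeR, 0 at an unadjusted p under 0.05, and 0 in DESeq2 and in limma-voom. With the line as a replicate block in edgeR, 3 of them, KRT1, KRT10 and KRTDAP, were called higher in differentiation medium, as was 1 basal marker, DSG3. That fit called 2884 of all 14475 genes tested. The duct marker sum, 7048 to 11664 CPM in complete medium, ranged from 4133 CPM in EPN2 to 16228 CPM in Em in differentiation medium. The part of these other epithelial markers in the AQP8 levels was not tested.

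**Figure D2:**
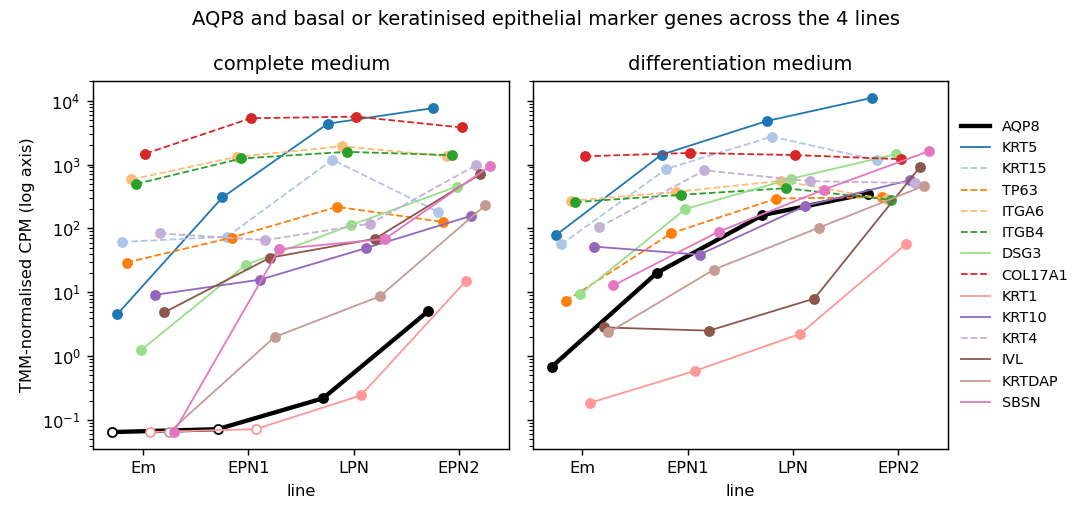
TMM-normalised CPM on a log axis for AQP8 (thick black line) and the 13 basal or keratinised epithelial markers tested in the 4 lines, ordered by AQP8, in complete medium (left) and differentiation medium (right). Each point is 1 library, shifted sideways for legibility, with open symbols for 0 counts drawn at the level of 3 counts. AQP8 is highest in EPN2 in both panels, as are 7 of the 13 markers (solid lines), while the other 6 (dashed) peak in another line in at least 1 medium.

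Markers of the cells in which AQP8 is best known were read in the same way. Of the 13 acinar markers in the table, CPB1, PNLIP, CLPS and PTF1A, which include defining digestive enzymes and the acinar transcription factor, had at most 3 counts in every library. The acinar sum, 124 to 164 CPM under complete and 149 to 320 CPM under differentiation medium, consisted mostly of CTRC, a chymotrypsin, at 141 ± 13.5 and 264 ± 78.6 CPM (SD, n = 4). Of the 6 surface colonocyte markers tested, 1 was called higher in differentiation medium by edgeR and the median log2 fold change was 2.32, against 0.01 over all genes. The gene called was CA1, a carbonic anhydrase, with at most 3 counts in each library in complete medium and 46, 1090, 308 and 77 counts in Em, LPN, EPN1 and EPN2 in differentiation medium (adjusted p = 0.0277). That call was lost in 5 of the 8 fits with 1 library left out, those without Em in complete medium or without LPN or EPN1 in either. DESeq2 called 4 of the 6 higher and limma-voom 0, beside 2884 and 891 of all 14475 genes tested, in either direction.

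The colonocyte sum in differentiation medium was 512 CPM in Em, 142 in LPN, 277 in EPN1 and 55.1 in EPN2. The gene with the most of it was VIL1, a microvillus protein, at 356, 66.5, 202 and 48.1 CPM in the same order. CA1 was lowest in Em and highest in LPN. SLC26A3, the chloride exchanger of surface colonocytes, averaged 0.0337 ± 0.0539 CPM under complete and 0.0686 ± 0.0973 CPM under differentiation medium (SD, n = 4). Among the 3 gland markers tested none was called by edgeR in the media comparison (0 at an unadjusted p under 0.05, and 0 in DESeq2), and the gland sum spanned 15.4 to 976 CPM under complete and 49.6 to 2838 CPM under differentiation medium. The part of these cell types in the aquaporin levels was not tested.

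Of the 12 symbols for other aquaporins, 7 were in the table and 2 passed the expression filter. AQP1, AQP7, AQP12, AQP12A and AQP12B were not found by name, so nothing can be said of their levels. MIP, AQP4, AQP6 and AQP10 had at most 3 counts in every library and AQP2 at most 6. AQP9, an aquaglyceroporin of liver and white blood cells, had 141 CPM in Em, 73.2 in LPN, 203 in EPN1 and 19.6 in EPN2 in complete medium. In differentiation medium it had 193, 65.4, 226 and 1.10 CPM in the same order, so that EPN2 fell to 1.10 CPM while the other lines stayed between 65.4 and 226 CPM. Its log2 fold change was 0.15 (SE 1.18, edgeR adjusted p = 0.949).

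AQP11, a channel of intracellular membranes, was low, with 4.25, 1.93, 1.66 and 2.42 CPM in Em, LPN, EPN1 and EPN2 in complete medium. In differentiation medium it had 8.75, 4.30, 6.86 and 2.38 CPM in the same order. It was higher in 3 of 4 lines, with EPN2 level, and did not pass the adjusted threshold of edgeR (log2 fold change 1.12, SE 0.48, adjusted p = 0.177, unadjusted p = 0.0470). Of these 2 other aquaporins 0 were called by edgeR or by DESeq2 with the medium alone, and 1 was under 0.05 unadjusted. DESeq2 with the line as a replicate block called AQP11 higher (adjusted p = 0.0211). The median log2 fold change of AQP9 and AQP11 was 0.64.

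Ductal fluid secretion moves chloride and bicarbonate into the lumen, and water follows through channels such as aquaporins. Of the 24 genes of this list tested, 1 was called higher and 2 lower, and the median log2 fold change was -0.02 (4 higher and 3 lower with the line as a block). Among all 14475 genes tested, 1009 were called, and 2884 with the block. KCNK5, a potassium channel of bicarbonate-secreting epithelia, rose from 28.9 ± 1.71 to 90.7 ± 7.57 CPM (log2 fold change 1.65, SE 0.11, edgeR adjusted p = 0.00221, SD with n = 4). P2RY2, a receptor for extracellular ATP, fell from 58.7 ± 10.9 to 6.90 ± 2.48 CPM (log2 fold change -3.09, SE 0.32, edgeR adjusted p = 0.00681). KCNQ1, an epithelial potassium channel, fell from 331 ± 58.2 to 123 ± 55.0 CPM (log2 fold change -1.43, edgeR adjusted p = 0.0460). These 3 were named after their values were seen. KCNK5 and P2RY2 stayed past the threshold with any 1 library left out, and KCNQ1 was lost in 7 of those 8 fits, all but the one without EPN2 in differentiation medium.

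The 6 secretion genes named by rule were not called by edgeR in the media comparison. SLC12A2, the basolateral sodium, potassium and chloride cotransporter, had 216, 149, 62.3 and 367 CPM in Em, LPN, EPN1 and EPN2 in complete medium. In differentiation medium the values were 39.0, 70.5, 58.3 and 64.9 CPM (edgeR log2 fold change -1.77, adjusted p = 0.0671). It was lower in all 4 lines, with EPN1 nearly level, and DESeq2 called it (adjusted p = 0.00414). CFTR, the chloride and bicarbonate channel of the duct, went in the same order of lines from 338, 7.68, 30.6 and 85.2 CPM to 128, 25.1, 84.6 and 2.97 CPM. It was lower in Em and EPN2 and higher in LPN and EPN1 (log2 fold change -0.94, edgeR adjusted p = 0.665).

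For the other 4, the edgeR log2 fold changes were -1.76 for the chloride channel ANO1 (adjusted p = 0.428), 1.12 for the secretin receptor SCTR (adjusted p = 0.696), -0.49 for the bicarbonate cotransporter SLC4A4 (adjusted p = 0.569) and -2.21 for the potassium channel KCNN4 (adjusted p = 0.232). With the line as a replicate block KCNN4 was called (edgeR adjusted p = 0.0398), and DESeq2 with the block also called ANO1 (adjusted p = 0.00296), SLC4A4 (adjusted p = 0.0299) and SLC12A2 (adjusted p = 0.00281). SCTR was called in the line test (edgeR adjusted p = 0.0456), with 459, 51.9, 229 and 2.76 CPM in Em, LPN, EPN1 and EPN2 in complete medium. It ran from Em down to EPN2, opposite to AQP8.

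**Figure D3:**
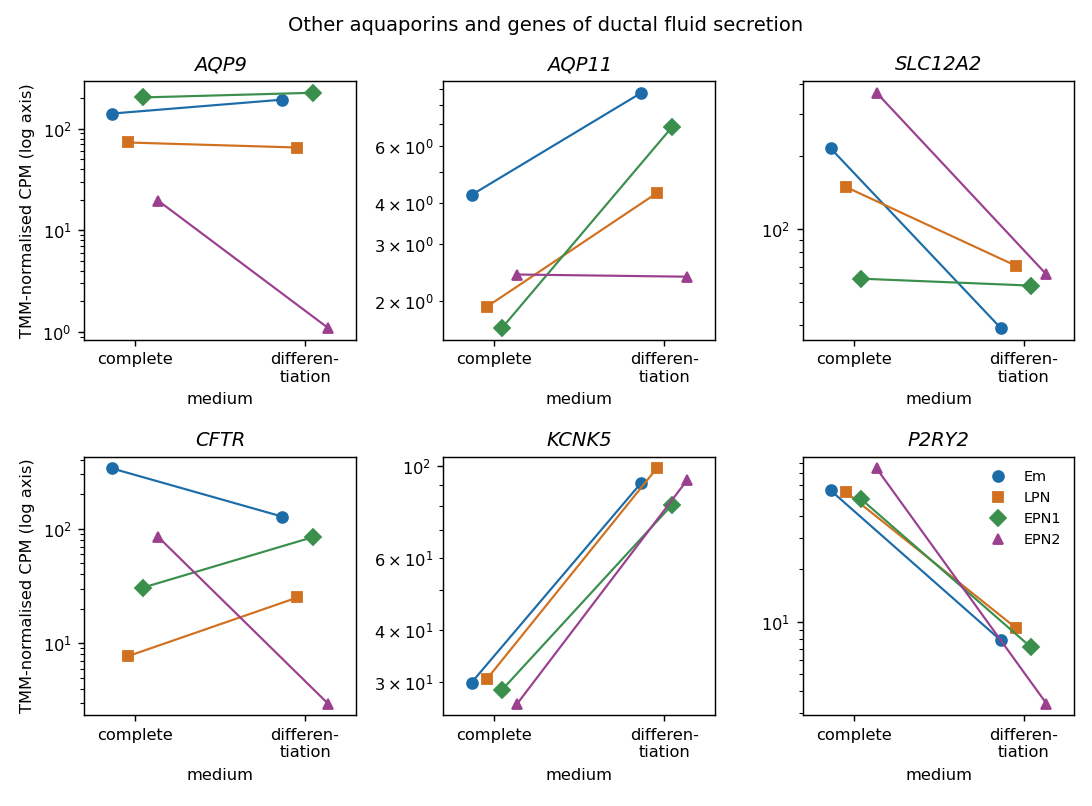
TMM-normalised CPM on a log axis, with a scale of its own for each gene, for AQP9, AQP11 and 4 genes of ductal fluid secretion in complete and differentiation medium, 1 point per library and 1 segment per line. KCNK5 is higher and P2RY2 lower in all 4 lines in differentiation medium, whereas EPN2 parts from the other lines in AQP9.

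Cell volume and osmolyte genes set how much water a cell holds. Of 17 tested, 1 was called higher and 2 lower, with a median log2 fold change of 0.08. SGK1, a kinase induced by cell shrinkage and steroid hormones, rose from 85.3 ± 25.4 to 265 ± 84.8 CPM (log2 fold change 1.64, SE 0.29, edgeR adjusted p = 0.0227). SLC5A3, which imports the osmolyte myo-inositol, fell from 59.7 ± 17.4 to 12.4 ± 2.15 CPM (log2 fold change -2.27, SE 0.25, edgeR adjusted p = 0.00728). OXSR1, a kinase that activates SLC12A2, fell from 140 ± 51.9 to 61.3 ± 2.42 CPM (log2 fold change -1.19, edgeR adjusted p = 0.0384). SLC5A3 stayed past the threshold with any 1 library left out. SGK1 was lost without Em, LPN or EPN1 in complete medium or LPN in differentiation medium, and OXSR1 in all but the fit without EPN2 in complete medium.

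AQP3 and AQP9 carry glycerol, and of 18 genes of glycerol and glyceride metabolism tested none was called by edgeR, 6 being under 0.05 unadjusted, with a median log2 fold change of 0.05. DESeq2 called 4 higher and 1 lower, limma-voom 0 higher and 1 lower, and edgeR with the line as a replicate block 3 higher and 1 lower. Among all 14475 genes tested, DESeq2 called 2884, limma-voom 891 and edgeR with the block 2884. AQP3 and AQP8 also carry hydrogen peroxide, and of 18 genes that make or remove it 4 were called lower and 0 higher by edgeR, with 10 under 0.05 unadjusted and a median of -0.05 (6 lower and 3 higher with the block, 7 and 3 in DESeq2). TXN, thioredoxin, fell from 564 ± 138 to 203 ± 15.1 CPM (log2 fold change -1.47, SE 0.19, edgeR adjusted p = 0.0119) and was called with any 1 library left out.

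The other 3 peroxide genes called were peroxidases, PRDX6 (log2 fold change -1.87, edgeR adjusted p = 0.0319), GPX1 (-1.20, adjusted p = 0.0315) and PRDX4 (-1.22, adjusted p = 0.0447). Each lost its call in 5 to 7 of the 8 fits with 1 library left out, including those without LPN or EPN1 in either medium and without Em in complete medium. Over all genes, the fits that lost a call passed 70 to 900 genes, against 1009 with all libraries. With the line as a replicate block in edgeR, which called 2884 of all genes, the 3 were called lower. Beside these lists, 6.97% of all genes were called. Among the 7 basal markers tested, the hemidesmosome genes ITGB4 (log2 fold change -1.86, edgeR adjusted p = 0.0283), ITGA6 (-1.80, adjusted p = 0.0377) and COL17A1 (-1.56, adjusted p = 0.0495) fell, while the median of that list was 0.50. Each of these was lost in 6 or 7 of the 8 fits with 1 library left out.

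**Figure D4:**
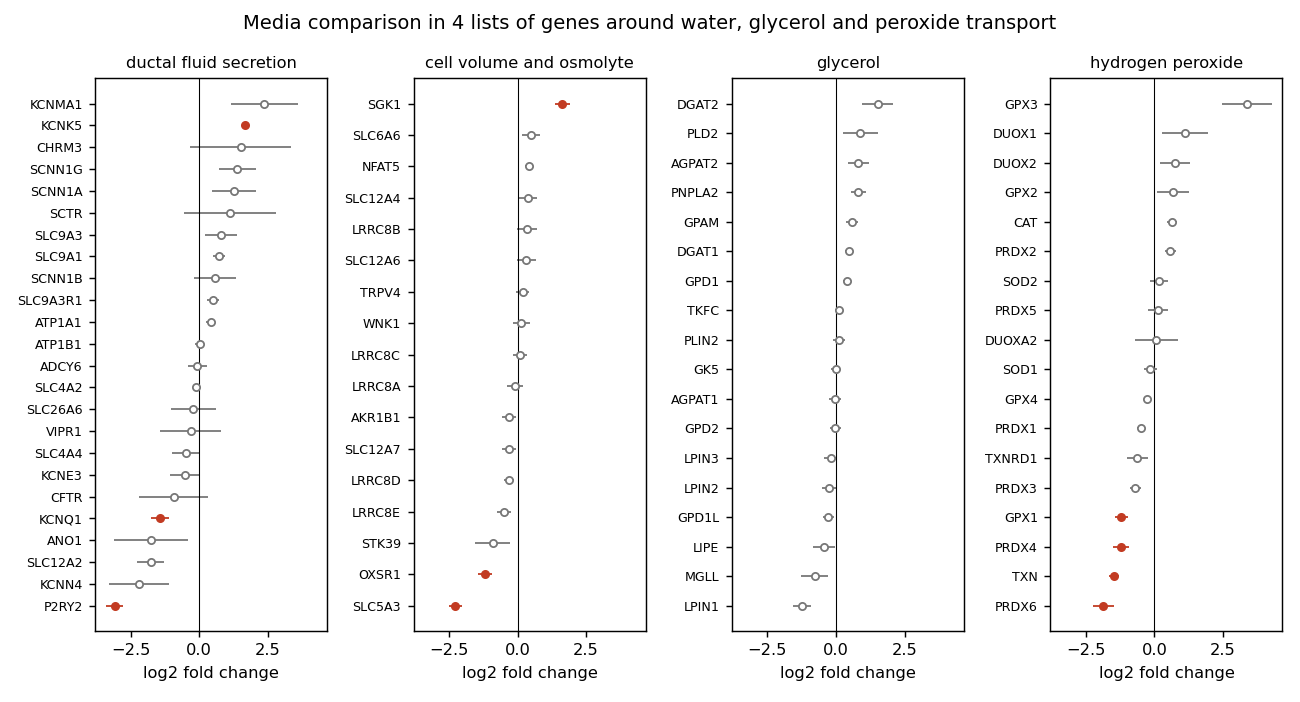
Log2 fold change of differentiation over complete medium (horizontal axis, bars show the SE of the edgeR fit) for the tested genes of 4 lists. Red filled points have an adjusted p under 0.05. Between 0 and 4 genes per list are filled, 2 of them higher and 8 lower.

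The genes with a symbol whose log2 CPM followed each aquaporin most closely were ranked by Pearson's r over the 8 libraries. For AQP3 these were MEX3B (r = 0.992), LRRTM4 (0.978), NIT1 (0.978), ZNF260 (0.973) and CBX1 (0.972). For AQP5 they were MIPEP (r = 0.986), LYPLAL1 (0.975), LYAR (0.971), GNL3 (0.964) and PIP4K2A (0.961). For AQP8 they were TMPRSS11A (r = 0.990), WDR24 (0.987), SFRP1 (0.985), NMRK1 (0.985) and HAUS7 (0.983). The likeness is one of shape and not of size: MIPEP, a mitochondrial peptidase, had a log2 fold change of -0.64 where AQP5 had -4.22.

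With medium means subtracted, the closest genes to AQP8 were KLK13 (r = 0.991), CASP14 (0.985), SFRP1 (0.984), TMEM50B (0.983) and TMPRSS11A (0.981). KLK13 is a kallikrein protease of stratified epithelia, and CASP14 is a caspase of cornifying keratinocytes. For AQP3 they were GPR171 (0.977), CYP27A1 (0.965), JMJD1C (0.965), TRMT1 (0.963) and RAB27A (0.963), and for AQP5 MIPEP (0.979), NCOA7 (0.979), ZNF26 (0.976), CORO1A (0.967) and AMCF-II (0.966). The 8 libraries share lines and media, so these values describe them and are no test. By Spearman's rho 0 to 2 of the 5 genes stayed among the first 5, depending on the aquaporin.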

How the data were processed

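From poly(A) RNA the authors made sequencing libraries, ran salmon within nf-core on a pig genome with their own annotation, and deposited its estimated counts for each gene row. The submitters' processing notes name the builds Sscrofa11.1 and GRCh38 for the series, and the release of the annotation is not given in the sources used here. The study used length-scaled salmon counts for its own test, the deposited table is labelled raw, and which of them it holds could not be read from its values. No transcript lengths were used, so levels are compared within a gene. Of the values above 0, 78.6% are whole within a tolerance of 1e-09, as are all those of the 3 aquaporins.

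The table has 56060 rows, 25770 of them extensions of a gene past its end with 2.58% of all counts. Rows of a gene were summed and rounded, and 8 reporter transgene rows with 0.00142% of the counts were left out, which gave 30282 genes, 17095 with a symbol. Column headers name the medium and the line, and the replicate numbers of the labels were not matched to columns.

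Media were compared with edgeR 4.0.16 in R 4.3.3 (TMM, default expression filter, quasi-likelihood test, Benjamini-Hochberg adjustment over 14475 genes, threshold 0.05). Lines were tested in the model of medium and line. Alternatives used DESeq2 1.42.0, limma 3.58.1, other scaling, no filter, no extension rows, the line as a block, and each library left out. Both steps were run on simulated counts, with changes planted only in well-expressed genes and the spread of each gene capped. Those runs do not cover genes with libraries near 0 counts, such as AQP5 and AQP8. Same-line libraries in both media come from 1 animal, and their deviations from the medium means correlated at 0.400 to 0.657 (4 pairs), against -0.479 to 0.242 for different lines (12 pairs), so the line pairs them. No 2 libraries were identical.

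The 3 genes and all lists were chosen with earlier results of these data known. Named genes are the aquaporins found, 6 secretion genes, up to 4 called genes with the smallest adjusted p in each other list, and the 5 genes most correlated with each member. Places are from the RefSeq table on Sscrofa11.1. Marker lists for endocrine, endothelial, stromal, immune and fat cells were also read: of their 14 genes tested, 0 were called in the media comparison by edgeR and 2 were under 0.05 unadjusted, while DESeq2 and edgeR with the line as a block each called 1, PDGFRB, which was lower in differentiation medium.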

Additional observations from a re-analysis of the deposited data

Results flagged for a closer look

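In a group of 4 libraries, 1 library stood far from the others for 3 of 22 groups examined (11 genes in 2 media). Chance marks about 1 group in 20 where values are normal and groups independent. Here the values were CPM without log scaling and all groups shared the same 8 libraries, so that rate is no yardstick. AQP5 in complete medium was 16.3 CPM in Em, against 2.22 CPM in the next library, a gap of 0.911 of the whole range. AQP8 in complete medium was 5.09 CPM in EPN2 and 0.219 CPM in the next, a gap of 0.957 of the range. ANO1 in differentiation medium was 36.8 CPM in EPN2 and 3.24 CPM in the next, a gap of 0.945 of the range.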

How the results depend on the processing

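The count of genes between the media, 1009, was 2884 with DESeq2, 506 without the expression filter, 2884 in edgeR and 5393 in DESeq2 with the line as a replicate block, and 70 to 1199 with 1 library left out. With both libraries of a line left out, a setting chosen after seeing the data, edgeR called 149 without Em, 5 without LPN, 0 without EPN1 (2220 at an unadjusted p under 0.05, 1146 in DESeq2) and 1207 without EPN2. The count between lines, 744, was 4565 with the likelihood ratio test of DESeq2, 1163 without the filter and 24 to 969 with 1 library left out. The log2 fold change ranged from 4.43 to 5.15 for AQP3, -4.93 to -2.38 for AQP5 and 5.51 to 10.83 for AQP8 with 1 library left out. Without both EPN2 libraries AQP8 was 9.69. AQP3 was not past the threshold without EPN1 in either medium, or without both libraries of Em, LPN or EPN1. In the line test with 1 library left out, adjusted p (edgeR) was 0.0491 to 0.344 for AQP3, 0.108 to 0.540 for AQP5 and 0.00928 to 0.130 for AQP8, and with DESeq2 it was 0.00236 for AQP3 and 0.00454 for AQP5. No called result changed sign. Outside the 3 aquaporins, the block in edgeR added calls for KCNN4, KRT1, KRT10, KRTDAP, DSG3, ONECUT1 and PDGFRB among the genes named here. It kept those of KCNQ1, SGK1, OXSR1, PRDX4, PRDX6, GPX1, CA1, ITGB4, ITGA6 and COL17A1. These 10 had been lost in 4 to 7 of the 8 fits with 1 library left out. Counts of 2 to 98 for AQP5 outside Em limit its folds, and 0 counts in 2 libraries leave AQP8 with lower bounds. The cause of these shifts was not tested.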
